A study of Mus musculus with 12 samples.

Results

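The 6 claudin genes described here, Cldn2, Cldn3, Cldn4, Cldn7, Cldn15 and Cldn23, were taken by symbol from the gene list of a single-cell expression table of mouse small intestinal epithelium. All 6 were found among the 20090 genes of the table, which held 14 claudin symbols in all. The data were droplet-based 3′ single-cell transcriptomes from adult mice of the strain Lgr5DTR-GFP, a reporter line for the Lgr5 gene of crypt stem cells. The cells were small intestinal epithelial cells sorted as CD45-negative and EpCAM-positive, and they belonged to the 8 samples of a diet group whose individual diets the labels do not name. Each intestine had been cut into 30 pieces whose cells were tagged by piece, and the tags were not used here, so position was read from gene scores. The other 4 of the 12 samples of the series were not analysed here.

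Claudins are membrane proteins of the tight junction, the belt near the apical surface that joins neighbouring epithelial cells and sets which ions and molecules pass between them. Cldn2 and Cldn15 form cation-selective pores, and in the small intestine they let sodium return to the lumen, where sodium-coupled nutrient uptake uses it. Cldn3 and Cldn4 are usually counted among the sealing claudins and are receptors for Clostridium perfringens enterotoxin. Cldn7 lies largely along the basolateral membrane, where it binds the adhesion protein EpCAM. New epithelial cells arise in the crypt, mature while moving up the villus and are shed at its tip.

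The table pooled 27881 cells and did not map a cell to a sample, so the 8 sets given by the barcode endings were used as the unit of spread. The sets cannot be matched to the samples or to diets, nothing says that they came from separate mice, and 80 pairs of cell barcodes were shared between sets. The epithelial gene Epcam stood at 1514 to 3343 ppm over the sets, and the leukocyte gene Ptprc, which encodes CD45, at 0.237 to 2.73 ppm. A level in ppm is a gene's share of the summed deposited values of a group of cells, scaled to 1000000. Marker sums of T cells, B or plasma cells, myeloid, stromal and endothelial cells did not exceed 15.5 ppm in any set, and the sum of 4 globin genes reached 62.3 ppm. Of 33 clusters, made without the claudins and the other junction genes, 10 stayed unnamed, and no cluster could be named for Paneth cells. Progenitor-like cells (7843) and enterocyte-like cells (6378) were found in every set. Set 7 held 324 of 350 tuft-like and 611 of 784 enteroendocrine-like cells, and sets 4 and 7 held 840 and 501 of 1612 goblet-like cells. Because the table is 1 pooled sample, no significance test was possible, and differences are described by size and direction. Genes whose mean level reached 10 ppm in a comparison are counted as tested in it. A gene was called higher or lower where its mean level was at least 10 ppm, the median log2 difference over sets was at least 1 in size, and every set with at least 30 cells in both groups (3 sets or more) had the same direction.

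In the mouse genome (GENCODE vM21, build GRCm38, the same assembly as mm10), the 6 genes lie on 4 chromosomes. Cldn4 (chromosome 5, 134945119 to 134946934, minus strand) and Cldn3 (chromosome 5, 134986214 to 134987472, plus strand) are neighbours that point away from each other, with 39279 bases between them, and each has 1 exon. Cldn15 lies on the same chromosome at 136966616 to 136975858 and has up to 6 exons. Cldn7 (chromosome 11, 69964779 to 69967885) has up to 5 exons, Cldn2 (chromosome X, 139800828 to 139811386) has 2 exons, and Cldn23 (chromosome 8, 35824712 to 35826559, minus strand) has 1 exon. The sequence upstream of the start site is shown for the claudins at the ends of the patterns below. Cldn2 was highest near the crypt end and Cldn4 at the villus tip. The median of Cldn15 was highest in enterocyte-like cells with a proximal gene score, a difference that was not called. The sequences run 5′ to 3′ on the strand of the gene and come from RefSeq (GRCm38.p6), in which 5 of the 6 genes were matched, all but Cldn23. They lie at chrX:139800558-139800807 (plus strand), chr5:134946935-134947184 (minus strand) and chr5:136967619-136967843 (plus strand). The Cldn15 window starts 1003 bases inside the longest GENCODE span of the gene. Bases that GENCODE places in an exon were left out at its end, so 225 are printed. Distances below are counted from the RefSeq start, at the end of the full 250 bases. Capitals mark matches, on either strand, to 7 short motifs.
Cldn2: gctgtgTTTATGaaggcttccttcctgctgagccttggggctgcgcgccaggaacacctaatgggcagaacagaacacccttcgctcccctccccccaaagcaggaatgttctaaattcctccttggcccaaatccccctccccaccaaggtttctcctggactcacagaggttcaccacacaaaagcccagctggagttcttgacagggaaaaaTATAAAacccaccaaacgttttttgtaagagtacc
Cldn4: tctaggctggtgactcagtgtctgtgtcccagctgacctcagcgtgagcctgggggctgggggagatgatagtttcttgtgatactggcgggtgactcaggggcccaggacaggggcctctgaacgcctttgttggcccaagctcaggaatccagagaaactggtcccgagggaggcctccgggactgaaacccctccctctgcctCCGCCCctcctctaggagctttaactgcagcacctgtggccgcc
Cldn15: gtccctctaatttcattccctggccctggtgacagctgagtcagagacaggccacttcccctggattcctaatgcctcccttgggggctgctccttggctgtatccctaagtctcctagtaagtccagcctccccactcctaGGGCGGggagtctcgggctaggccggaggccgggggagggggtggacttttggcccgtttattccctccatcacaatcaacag
Each motif was searched on both strands, and its background is the share of all 32817 windows of 250 bases in the RefSeq table that held it. The TATA box, which positions the start of transcription, was searched as TATAAA and was held by 12.4% of the windows. For the GC box, bound by Sp1 and its relatives, the letters were GGGCGG and the background was 32.7%. A site of the intestinal factor Cdx was written TTTATG, with a background of 10.8%. The other 4 motifs had no match in these windows. A GATA site (AGATAA) was held by 9.99% of the windows, and a part of an Hnf4 site (CAAAGT) by 12.6%. A Tcf site, as used in Wnt signalling (CTTTGA), was held by 13.8%, and an Hnf1 site, one of its repeats only (GTTAAT), by 6.44%. In the 250 bases upstream of Cldn2, a TATA box began 35 bases before the RefSeq start and a Cdx site 244 bases before it. This start lies upstream of the GENCODE start of Cldn2 given above. The same window upstream of Cldn4 held a GC box that began 44 bases before the start, that of Cldn15 one at 108 bases and that of Cldn3 one at 236 bases. Of the 2 Cldn7 start sites, 1 had a GC box, which began 6 bases before the start, and the other had none of the 7 motifs. The share of G and C was 52.0% upstream of Cldn2, 62.0% upstream of Cldn4 and 60.8% upstream of Cldn15 and of Cldn3, against a median of 52.4% over all windows. A match is a description of the letters and shows no bound factor.

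Between progenitor-like and enterocyte-like cells, the claudins split into 1 that fell, 2 that rose and 3 that missed the size rule. The cells of unnamed clusters, 38.4% of all, are in neither class. Cldn2, the pore-forming claudin known from crypts, was lower in enterocyte-like cells. Its level over the sets was 100.2 ppm at lowest, 113.7 at the median and 136.1 at highest in progenitor-like cells, and 22.3, 28.8 and 42.96 ppm in enterocyte-like cells. The ranges did not overlap, all 8 sets were lower, and the median log2 difference was -1.93 (-2.24 to -1.56). Cldn4 was at 0.96, 3.04 and 7.53 ppm in progenitor-like cells and at 20.8, 54.7 and 81.04 ppm in enterocyte-like cells. Cldn4 was higher in every set, again without overlap, with a median log2 difference of 3.66 (3.02 to 4.72). Cldn23, a claudin of differentiated epithelia, was at 4.17, 4.89 and 6.50 ppm in progenitor-like and 20.6, 29.6 and 37.9 ppm in enterocyte-like cells. The difference of 2.38 (1.86 to 2.91) also had one direction in 8 of 8 sets.

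The other 3 claudins had higher medians in enterocyte-like cells but were not called. Cldn7 was at 699.5, 756.6 and 913.2 ppm in progenitor-like cells and at 1168, 1546 and 1964 ppm in enterocyte-like cells. Its ranges did not overlap, and its median log2 difference of 0.97 (0.55 to 1.39) lay just under the threshold; it was 1.01, past the rule, when set 1, 2, 3 or 5 was left out. Cldn3 went from 217.7 ppm (184.5 to 262.8) to 335.4 ppm (263.3 to 401.8), a difference of 0.56 without overlap. Cldn15 went from 139.9 ppm (131.2 to 160.6) to 163.0 ppm (141.6 to 206.0), a difference of 0.25 with overlapping ranges. In all, 3 of the 6 claudins were called, beside 48.4% of the 9246 genes tested (1361 higher and 3110 lower). The median log2 difference was 0.77 over the 6 claudins and -0.46 over all genes tested.

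Levels of RNA that belongs to the other class were set beside these values. The summed level of 14 enterocyte markers in progenitor-like cells was 2.67% of that in enterocyte-like cells, and the level of Cldn4 was 5.55%. For Cldn23 the figure was 16.5%. In the other direction, the sum of 8 stem cell markers in enterocyte-like cells was 10.1% of that in progenitor-like cells, and the level of Cldn2 was 25.4%. The part of free RNA in the low levels was not tested.

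The counts of junction partners stand beside 48.4% of all genes called, 1361 higher and 3110 lower. Nothing particular to these lists is read from the counts. Of 19 tested tight junction partners (23 in the table), 7 were called higher and 2 lower, and their median log2 difference was 0.73. The 7 higher genes were Tjp1, F11r, Cxadr, Cgn, Mpp5, Pard6b and Crb3, which encode scaffold, adhesion and polarity proteins, and the lower ones were Ybx3 and Prkci. Ybx3, a transcription factor that the tight junction binds, differed by -2.09 (62.8 against 273.4 ppm). Of 12 adherens junction and claudin-binding genes, 3 were higher and none lower, among them Spint1, an inhibitor of the protease matriptase, at 1.98. Of 9 tested ion transport genes that work with paracellular flow, 4 were higher and 3 lower. The apical sodium-proton exchanger Slc9a3 differed by 4.66 (160.7 against 5.06 ppm) and the sodium-glucose cotransporter Slc5a1 by 3.17 (1145 against 113.6 ppm). The genes of chloride secretion Slc12a2, Cftr and Kcnn4 were lower, at -3.58, -2.23 and -3.75.

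**Figure D1:**
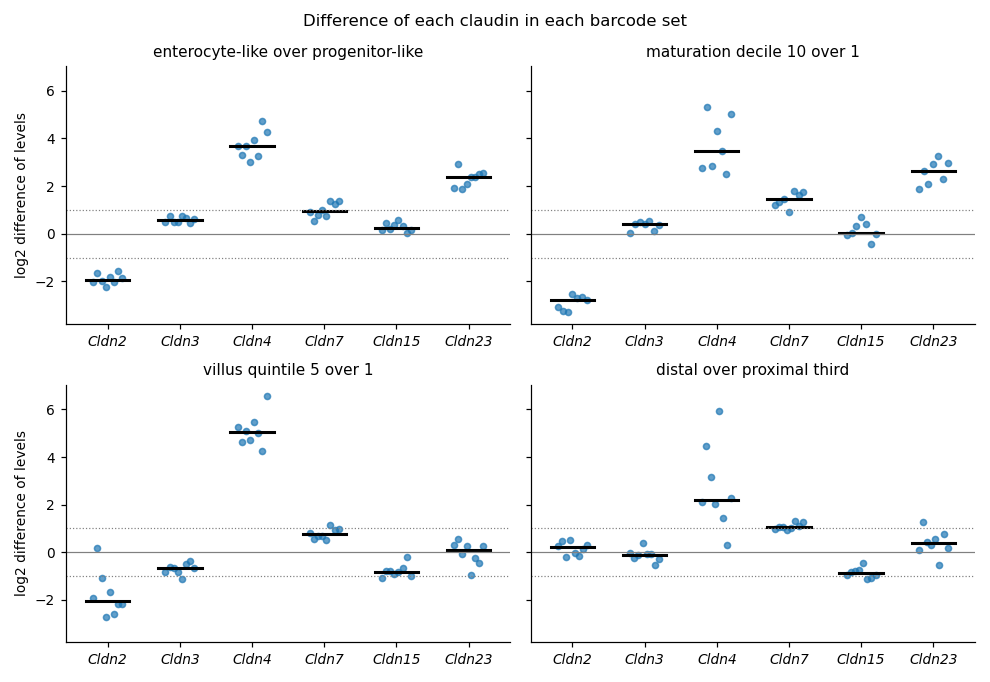
Each point is the log2 difference of a claudin's level (pseudocount 1 ppm) in 1 barcode set, black lines are medians over sets, and dotted lines mark a difference of 1 in size, in 4 comparisons. Cldn2 lies below 0 in every set in the upper panels (medians -1.93 and -2.80), and Cldn4 lies above 0 in every set of all 4 panels (medians 3.66, 3.45, 5.06 and 2.21).

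The 24895 cells outside the secretory and stomach-like classes, with the unnamed clusters of at least 50 cells included, were next placed in 10 equal parts (deciles) of a maturation score, 8 brush border genes minus 8 crypt genes, none of them a junction gene. Genes kept out of the score followed it: Lgr5 was at 484.8 ppm in decile 1 and 5.72 ppm in decile 10, and the brush border peptidase gene Anpep at 6.79 and 1637 ppm. Deciles are ranges of a score, and 59.5% of the cells lay within 0.1 SD of a boundary. The unnamed cells were not all shown to be absorptive: cluster 1 (1881 cells, 1480 of them in set 7) was led by Hbb-bs, Ulk4, Ghrl, Sst and Spink4.

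Cldn2 was highest near the crypt end and was lowest at the villus end. Its median over sets was 120.2 ppm in decile 1, 135.5 in decile 2, 111.2 in decile 3 and 99.8 in decile 4. It then went through 88.3, 79.4, 59.96 and 48.8 ppm in deciles 5 to 8 to 31.9 ppm in decile 9 and 16.4 ppm in decile 10. The peak was in decile 2 in 7 of 8 sets and in decile 5 in set 4, which had under 30 cells in decile 2. Between decile 10 and decile 1, Cldn2 fell by 2.80 on the log2 scale in the 7 sets with enough cells (differences of -3.29 to -2.52), and the ranges of 9.15 to 21.5 and 97.9 to 155.5 ppm did not overlap.

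Cldn4 stayed at a low level over the first 6 deciles and was high only in the last 4. Its medians were 1.996, 2.02, 2.91, 4.30, 5.36 and 7.66 ppm in deciles 1 to 6, then 21.6, 34.9, 41.6 and 75.2 ppm in deciles 7 to 10. Decile 10 exceeded decile 1 in each of 7 sets, by 3.45 at the median (2.51 to 5.30). The level of Cldn23 went up between deciles 5 and 7, with medians of 2.94 to 6.81 ppm in deciles 1 to 5, 14.9 in decile 6 and 22.9 in decile 7. It reached 29.7 ppm in decile 9 and was at 22.4 ppm in decile 10, where it exceeded decile 1 by 2.63 (1.88 to 3.27). Cldn7 had a median of 693.5 ppm in decile 1, 1115 in decile 6, 1414 in decile 9 and 2192 in decile 10. The end to end difference of Cldn7 was 1.44 (0.90 to 1.81), higher in 7 of 7 sets.

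Cldn3 and Cldn15 had their highest level short of the villus end. Cldn3 was at 199.1 ppm in decile 1, 402.7 in decile 7 and 260.7 in decile 10, and its peak was in decile 7 or 8 in every set. Cldn15 was at 133.1 ppm in decile 1, 183.4 in decile 8, 184.2 in decile 9 and 147.1 in decile 10, with its peak in decile 8 or 9 in every set. Between the ends, Cldn3 differed by 0.41 (0.02 to 0.53) and Cldn15 by 0.03 (-0.45 to 0.68), with overlapping ranges for both.

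**Figure D2:**
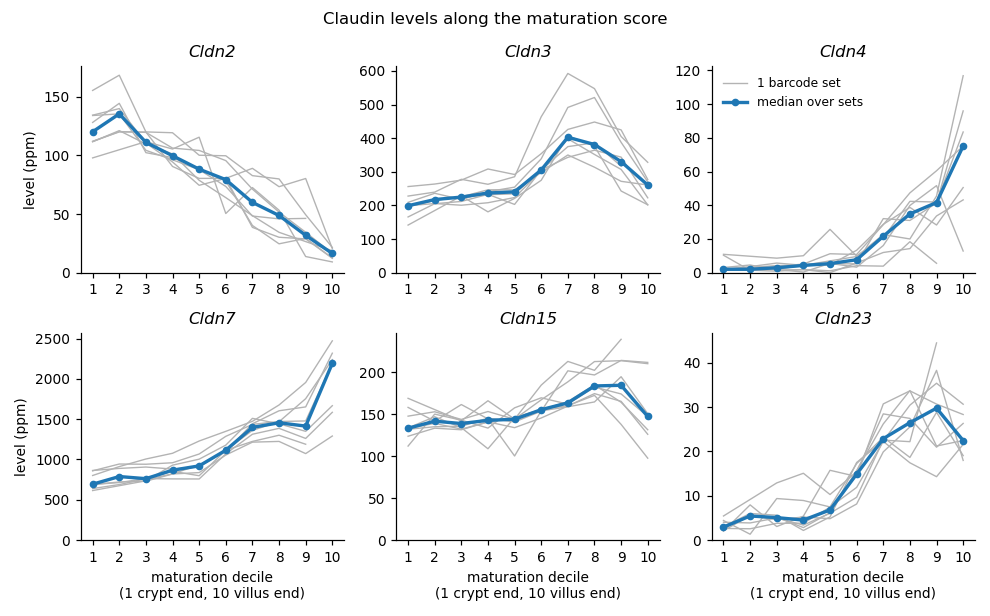
Levels in ppm (linear axes from 0, 1 panel per claudin) over the 10 maturation deciles from the crypt end to the villus end, with 1 grey line per barcode set (points under 30 cells left out) and the median over sets in blue. Cldn2 goes from 120.2 to 16.4 ppm, Cldn4 from 1.996 to 75.2 ppm, and Cldn3 peaks at 402.7 ppm in decile 7.

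With 4 of the 6 claudins called between the ends, beside 57.5% of 9158 genes, the count of claudins was near that of genes at large. The median difference was 0.92 over the claudins and -0.57 over all genes tested. The call of Cldn7 was lost when cells were matched on detected genes (0.90) and with crypt scoring genes alone (0.64), and that of Cldn4 was lost with crypt scoring genes alone (1.04). Without unnamed clusters 0, 1 and 7 the same count of 4 was called, with Cldn2 at -3.04, Cldn4 at 4.05, Cldn7 at 1.59 and Cldn23 at 2.89. Median detected genes per cell were 2859 in decile 1 and 1966 in decile 10.

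The counts of the partner lists stand beside 57.5% of all genes called, 1669 higher and 3599 lower. Of 20 tested tight junction partners, 10 were called higher and 3 lower, with a median of 1.05. The 3 lower genes were Ybx3 (-3.42), Prkci and Cgnl1, the gene of paracingulin, which was at 0 against 20.3 ppm. Of 12 adherens junction and claudin-binding genes, 8 were higher and none lower. Spint1 differed by 2.94 (241.4 against 34.4 ppm). The pore-forming Cldn2 was low where Slc9a3 (144.9 against 2.03 ppm) and Slc5a1 (1388 against 58.0 ppm) were high, and high where Slc12a2 (1309 against 82.3 ppm) and Kcnn4 (81.3 against 1.87 ppm) were high.

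Along the villus, enterocyte-like cells were divided into 5 parts (quintiles) of a villus score, 4 tip genes minus 4 bottom genes, cut within each set and regional part. Enpp3 and Egfr are tip genes kept out of the score, but both were among the genes that named clusters enterocyte-like. They were at 6.18 and 42.2 ppm in quintile 1 and at 669.7 and 296.5 ppm in quintile 5. Reg3b, a gene of the lower villus, was at 7218 and 1076 ppm.

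Cldn4 was the claudin with the largest difference between tip and bottom. Its level over the sets was 2.18 ppm at lowest, 3.86 at the median and 9.38 at highest in quintile 1, and 86.5, 195.2 and 302.6 ppm in quintile 5. The medians between were 8.64, 19.7 and 73.99 ppm in quintiles 2, 3 and 4. Every set was higher at the tip, with no overlap, and the difference was 5.06 (4.25 to 6.55). Cldn4 was the 1 claudin of 6 called in this comparison, in which 20.9% of 7710 genes were called.

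Cldn2 was low at the tip in nearly all sets. It was at 35.1, 45.6 and 80.0 ppm in quintile 1 and at 6.39, 10.9 and 40.4 ppm in quintile 5, a median difference of -2.04. The difference was below 0 in 7 of 8 sets and was 0.20 in set 2, which kept Cldn2 from being called; without set 2 it was -2.15 and past the rule. Cldn15, the other pore-forming claudin, was at 159.4, 224.5 and 278.3 ppm at the bottom and 106.4, 135.7 and 158.6 ppm at the tip. All 8 sets were lower and the ranges did not overlap, but the difference of -0.81 (-1.06 to -0.20) missed the threshold of size. It was past the rule, at -1.28, when the quintiles were cut without regard to region.

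The sealing claudin Cldn3 had a median of 480.6 ppm at the bottom, 271.2 in quintile 3 and 292.5 at the tip, a difference of -0.66 (-1.10 to -0.35) that was below 0 in 8 of 8 sets with overlapping ranges. Cldn7 went from 1290 ppm (1128 to 1432) to 2158 ppm (1593 to 2799), a difference of 0.76 (0.50 to 1.13) without overlap. It was called, at 1.23, when region was not balanced in the quintiles. Cldn23 was high at both ends of the villus, with medians of 42.1, 21.3, 19.5, 22.5 and 42.4 ppm in quintiles 1 to 5. Its end to end difference was 0.08, above 0 in 4 sets and below 0 in 4.

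Cells of the tip quintile were unlike those of the bottom in other ways, whose part in these results was tested only by matching on detected genes. The median cell had 1644 detected genes at the tip and 2584 at the bottom, and after matching on detected genes Cldn4 differed by 4.22 and Cldn2 by -1.22. Summed Paneth cell markers (10 of 10 higher at the tip) were at 6684 against 1895 ppm, and stem cell markers (7 of 8 higher) at 681.8 against 166.8 ppm.

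Of all 7710 genes tested along the villus, 20.9% were called, 540 higher and 1068 lower at the tip. Of the partner lists, 4 of 19 tested tight junction genes and 4 of 12 adherens genes were called higher and none lower. They included Pard6b, a polarity protein, at 1.67, Ocln (occludin) at 1.36 with 280.0 against 108.1 ppm, St14 (matriptase) at 1.88, and Epcam, the binding partner of Cldn7, at 1.24 with 4759 against 1987 ppm. Of 8 tested ion transport genes, 2 were higher and 2 lower. Slc12a2 was higher at the tip (204.5 against 33.6 ppm, 2.54), and so was Slc9a2 (1.55). Slc9a3, named after its value was seen, was lower (-1.01).

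Position along the length of the intestine was read from a score, 8 distal minus 8 proximal genes, and enterocyte-like cells were cut into 3 equal parts within each set. Genes kept out of the score followed it, with S100g at 1086 ppm in the proximal and 23.2 ppm in the distal part, and Fabp6 at 130.2 and 11880 ppm. Of the cells, 15.2% lay within 0.1 SD of a boundary.

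Of the 3 regional parts, the median of Cldn15 was highest in the proximal one and those of Cldn7 and Cldn4 in the distal one. Cldn15 was at 193.6, 214.0 and 258.8 ppm in the proximal part, at a median of 157.3 ppm in the middle and at 99.6, 110.4 and 166.3 ppm in the distal part. The proximal and distal ranges did not overlap and 8 of 8 sets were lower distally, but the difference of -0.89 (-1.10 to -0.46) missed the threshold. Cldn7 was at 804.4, 1009 and 1163 ppm proximally, 1742 ppm in the middle and 1659, 2078 and 2527 ppm distally. It was called higher distally, at 1.05 (0.94 to 1.30). Cldn4 was at 0.795, 17.7 and 29.3 ppm proximally, 86.6 ppm in the middle and 36.4, 94.4 and 117.7 ppm distally, and was called at 2.21. The size of the Cldn4 difference varied widely, from 0.30 in set 7 to 5.94 in set 5. Markers of other cells were higher distally too, with summed Paneth markers at 5970 against 1726 ppm (10 of 10 higher), goblet at 4013 against 1381 (8 of 8), enteroendocrine at 762.2 against 277.2 (10 of 10) and stem at 633.3 against 266.4 (8 of 8). Their part in the regional differences was not tested.

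These 2 calls, beside 21.5% of 7831 genes, did not hold under several other choices. With cells matched on the villus score (922 in each part), Cldn4 differed by 0.68 and Cldn7 by 0.75, and Cldn2 became the called gene at 1.05. With matching on detected genes, of which the median was 2773 proximally and 1764 distally, Cldn4 was at 0.75 and Cldn7 at 0.71. Without rescaling to ppm Cldn7 was at 0.55, and with the distal scoring genes alone Cldn4 turned to -0.36. The tip genes Enpp3 and Egfr were themselves at 118.0 and 49.2 ppm in the proximal part and at 182.4 and 145.5 ppm in the distal part.

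The other 3 claudins were not called between the ends of the intestine. Cldn2 was at a median of 31.3 ppm proximally, 22.2 in the middle and 33.4 distally, a difference of 0.22 with 5 sets above 0 and 3 below, against 1.05 in the cells matched on the villus score. Cldn3 was at 351.1, 349.2 and 302.4 ppm and differed by -0.11. Cldn23 was at 23.2, 34.6 and 30.5 ppm and differed by 0.38 (-0.52 to 1.26).

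Read by villus quintile and regional part together, in the 6 sets with enough cells in each part, the claudins kept distinct shapes. Cldn4 was at the level of the villus bottom over quintiles 1 to 4 of the proximal part (2.58, 1.33, 2.59 and 3.79 ppm) and was at 85.4 ppm in quintile 5. In the distal part it was at 3.58, 22.7, 31.8, 121.8 and 346.4 ppm, and in the middle part it was at 347.8 ppm in quintile 5. Cldn7 was at 994.3, 934.8, 844.9, 789.1 and 1338 ppm over the proximal quintiles and at 1542, 1739, 1938, 2401 and 2974 ppm over the distal ones. Cldn15 was at 296.1 ppm in the proximal bottom, 157.9 ppm in the distal bottom, 154.5 ppm at the proximal tip and 104.8 ppm at the distal tip. Cldn2 was at 76.1 ppm in the distal bottom and 36.9 ppm in the proximal bottom, and at 7.35 and 14.4 ppm at the tips.

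**Figure D3:**
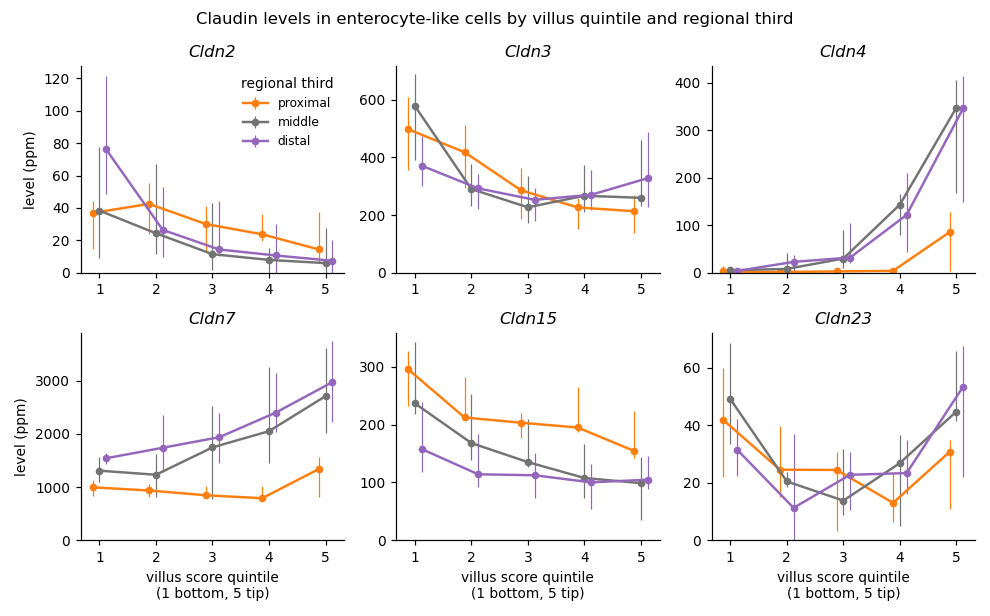
Levels in ppm (linear axes from 0, 1 panel per claudin) in enterocyte-like cells by quintile of the villus score, with 1 line per regional part (median over 6 barcode sets) and bars from the lowest to the highest set. Cldn4 is near 0 except at the tip in the proximal part (85.4 ppm) and reaches 347.8 ppm at the middle and 346.4 ppm at the distal tip, and Cldn15 is highest at the proximal bottom (296.1 ppm).

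Along the maturation score the regional difference of Cldn15 was larger in the later deciles. The regional score parts early cells weakly, since 43.1% of progenitor-like but 0.314% of enterocyte-like cells had a score of 0. Cells of equal score were parted at random. In the early deciles a small difference and a weak score therefore cannot be told apart. When each decile was cut into 3 regional parts, Cldn15 was at 132.0 ppm in the proximal and 146.7 ppm in the distal part of decile 1, and at 147.3 and 135.5 ppm in decile 5. In decile 7 it was at 215.3 and 121.4 ppm, and in decile 9 at 230.6 and 129.8 ppm. Cldn7 was at 667.9 and 750.1 ppm in decile 1 and at 1103 and 1932 ppm in decile 8.

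In progenitor-like cells no claudin passed the size rule between 3046 cells with a distal and 1419 cells with a proximal score, and few genes did (0.265% of 9433 genes, or 25). Cldn2 was at 104.5 ppm proximally and 120.1 ppm distally (0.20), Cldn15 at 153.6 and 139.0 ppm (-0.04), Cldn7 at 784.7 and 845.7 ppm (0.06) and Cldn3 at 222.5 and 235.5 ppm (0.06). Cldn4 (2.22 and 2.51 ppm) and Cldn23 (4.76 and 5.98 ppm) were under the 10 ppm minimum. The score is weak in these cells, since 43.1% of them had a score of 0.

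Of the tight junction partners, 9 of 19 were called higher distally and none lower, and of the adherens list 7 of 12 and none. The medians of the 2 lists were 0.99 and 1.04, against -0.09 for all genes tested. Of all 7831 genes tested, 21.5% were called, 658 higher distally and 1027 lower. These partner values come from parts not matched on the villus score or on detected genes (medians of 1764 distally and 2773 proximally). Epcam, at 4056 against 1558 ppm, differed by 1.49, Jup (plakoglobin) by 1.37 and St14 by 1.28. Slc9a3 was lower distally, at 75.5 against 226.8 ppm (-1.54), as the Cldn15 medians were, and Slc12a2 was higher (1.80).

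Goblet-like cells had more Cldn2 and less Cldn4 and Cldn23 than enterocyte-like cells. In this class, named for the mucus-making goblet cells, Cldn2 was at 22.6, 85.1 and 154.0 ppm. It was above the enterocyte-like level in each of 8 sets (1.34, 0.02 to 2.04). Set 4, which held 831 of the 979 cells of goblet-like cluster 12, had the lowest Cldn2 and the difference of 0.02. Cldn4 was at 0, 10.3 and 62.7 ppm in goblet-like cells and was lower than in enterocyte-like cells (-2.30, -5.75 to -0.37). Cldn23 was at 5.10, 8.74 and 11.4 ppm and was lower as well (-1.82, -2.41 to -1.06), without overlap. These were 3 of 6 claudins called, beside 26.4% of 8648 genes. Cldn7 (1025 ppm, -0.64), Cldn3 (297.9 ppm, -0.24) and Cldn15 (154.8 ppm, -0.11) were not called. The Cldn2 call was lost without rescaling (1.24) and in cells with at least 1500 detected genes (1.27), and the Cldn23 call at clustering resolution 1 (-1.13).

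The 2 goblet-like clusters differed in Cldn2 and Cldn4 when all their cells were summed. Cluster 12, led by Ccdc152, Fcgbp and Clca1, had Cldn2 at 25.5 ppm and Cldn4 at 27.8 ppm over all its cells. Cluster 22, led by Agr2, with 436 of 633 cells in set 7, had Cldn2 at 110.2 ppm and Cldn4 at 4.05 ppm. As set 4 held 831 of 979 cluster 12 cells, cluster and barcode set cannot be told apart in these sums. Over sets with at least 30 cells, the Cldn2 medians were 40.4 ppm (21.99 to 61.57) in cluster 12 and 103.7 ppm (93.42 to 166.8) in cluster 22. Those of Cldn4 were 22.4 ppm (0 to 29.15) and 1.03 ppm (0 to 10.97), with overlapping ranges. Summed enterocyte markers in goblet-like cells were 22.4% of those in enterocyte-like cells, close to the 18.9% for Cldn4 and the 29.5% for Cldn23, and the part of enterocyte RNA in these levels was not tested. Crypt markers were higher in goblet-like than in enterocyte-like cells, as Cldn2 was, with transit-amplifying markers at 1518 against 175.2 ppm (10 of 10 higher) and stem markers at 1266 against 521.2 ppm (8 of 8). In progenitor-like cells these sums were 2086 and 5157 ppm, and their part in the Cldn2 difference was not tested. Goblet-like cells also had higher tuft markers (9 of 9 higher, 135.5 against 16.6 ppm) and M cell markers (3 of 4, 54.6 against 12.4 ppm) than enterocyte-like cells. The marker list next after goblet was tuft in cluster 12 and M cell in cluster 22. The part of such cells in the goblet-like levels was not tested. Against progenitor-like cells no claudin was called in goblet-like cells (6.66% of 9276 genes were), with Cldn2 at -0.42 and Cldn3 at 0.29.

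Enteroendocrine-like cells, the hormone makers, could be compared in 3 sets. Their Cldn2 was at 26.6 ppm in set 4, 78.3 in set 7 and 111.7 in set 8, and their Cldn4 at 75.4, 4.21 and 4.86 ppm. Set 4 stood apart with the low Cldn2 and the high Cldn4, and its enterocyte-like cells had Cldn4 at 68.3 ppm. Summed enterocyte markers in enteroendocrine-like cells were at 5802 ppm at lowest, 22170 at the median and 47120 at highest over the 3 sets. In enterocyte-like cells of these sets they were at 52670 to 64770 ppm. The part of enterocyte RNA in the enteroendocrine-like levels was not tested. No claudin was called against enterocyte-like cells (28.0% of 8215 genes were) or against progenitor-like cells (24.1% of 9031 genes were). The largest median differences from enterocyte-like cells were -3.31 for Cldn4, with 2 of 3 sets lower, and 0.85 for Cldn2, with 3 of 3 higher. Summed over all cells instead, Cldn2 (1.38) and Cldn23 (-2.24) passed the rule. Such sums drop the pairing by set, and set 7 held 611 of 784 enteroendocrine-like but 248 of 6378 enterocyte-like cells. By set, enteroendocrine-like Cldn23 was at 17.75 ppm in set 4, 1.94 in set 7 and 19.43 in set 8 (differences of -0.71, -3.38 and -0.67).

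Tuft-like cells, chemosensory cells of the epithelium, reached 30 cells only in set 7, so their values have no spread. Cldn2 was at 81.1 ppm, Cldn3 at 270.6, Cldn4 at 6.70, Cldn7 at 1196, Cldn15 at 101.8 and Cldn23 at 1.22 ppm. Enterocyte-like cells of set 7 had Cldn2 at 42.96, Cldn4 at 50.7 and Cldn23 at 29.6 ppm. Tuft-like Cldn23 was 4.11% of the enterocyte-like median, while summed enterocyte markers were 7.86%.

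**Figure D4:**
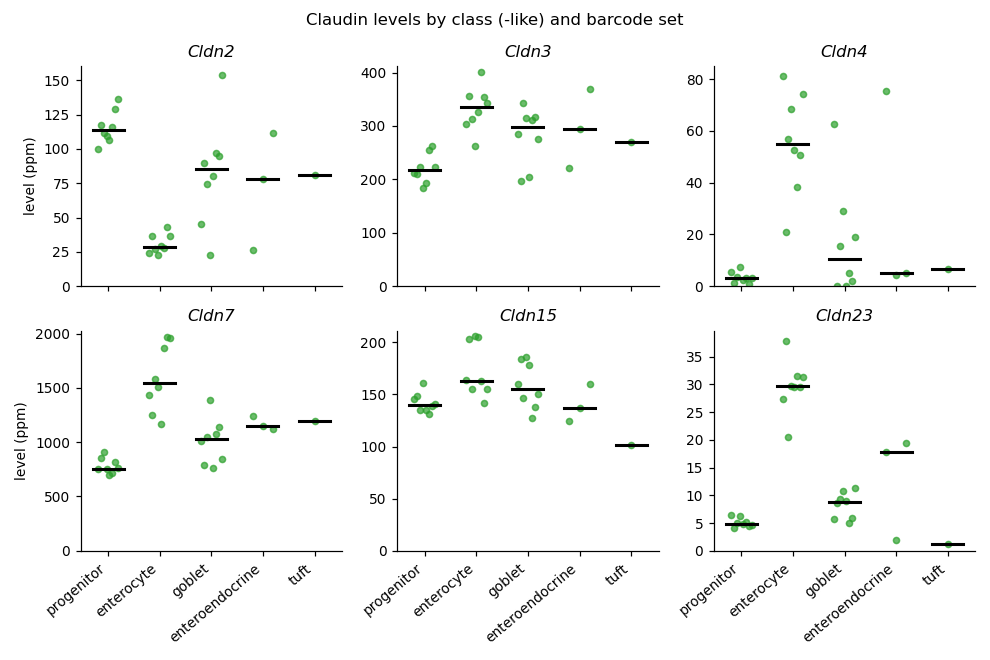
Levels in ppm (linear axes from 0, 1 panel per claudin) in 5 classes of cells, with 1 point per barcode set of at least 30 cells and a black line at the median. Progenitor-like and enterocyte-like cells have 8 points each and overlap for Cldn15 only, and goblet-like Cldn2 spreads from 22.6 to 154.0 ppm.

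Against enterocyte-like cells, 7 of 19 tight junction partners were lower in goblet-like cells and 1 was higher, with a median of -0.74. Of all 8648 genes tested, 26.4% were called, 1313 higher and 973 lower. Pard6b was at -1.91 and Cgn at -1.50, and the 1 higher gene was Ybx3, at 2.02. In enteroendocrine-like cells 6 of 19 partners were lower and 1 higher, with Pard6b at -2.85 (4.86 against 41.2 ppm). Of all 8215 genes tested there, 28.0% were called, 1004 higher and 1298 lower.

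Over the 32 clusters with at least 50 cells, values summed over sets showed where each claudin was highest. Cldn4 was at 312.3 ppm in enterocyte-like cluster 20 (led by Ly6m, Nt5e and Ada), 150.4 ppm in cluster 13 (led by Slc28a2, Enpp3 and Nt5e) and 87.5 ppm in cluster 16 (led by Slc6a14), and at 31.2 ppm or less in the other 29. Cluster 20 also had the highest Cldn7 (3061 ppm) and Cldn23 (61.3 ppm). Cldn15 was highest, at 306.0 ppm, in cluster 28, led by Akp3 and S100g. Cldn3 was highest, at 629.2 ppm, in unnamed cluster 8, led by Car1 with Gsdmc3 and Gsdmc4 among its 5 leading genes. That cluster kept Cldn2 at a progenitor level of 128.7 ppm while Cldn23 was at 34.8 ppm and Cldn4 at 3.11 ppm. Unnamed cluster 6, led by Ros1, Reg1 and S100g, had Cldn2 at 59.0, Cldn23 at 25.2 and Cldn4 at 1.65 ppm.

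**Figure D5:**
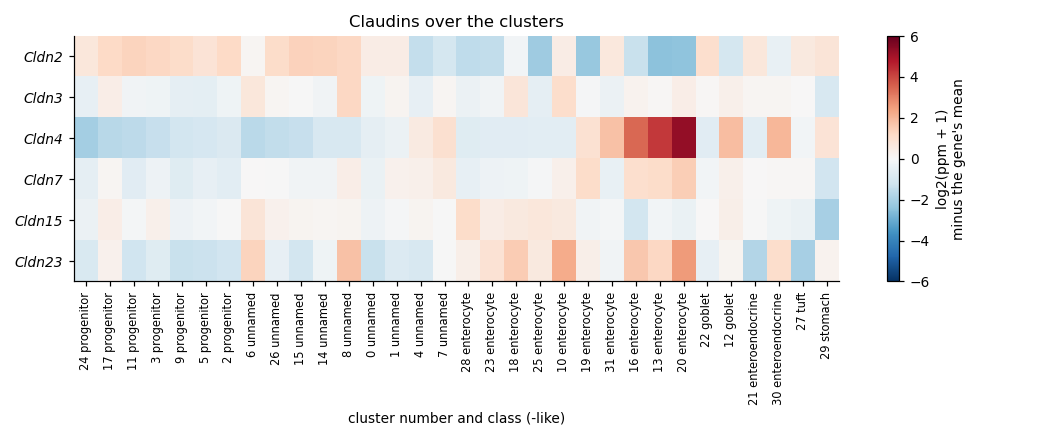
Colour shows log2(ppm + 1) of each claudin in each of 32 clusters minus that claudin's mean over the clusters, with values summed over barcode sets and clusters ordered by class and by Cldn4 level. Cldn4 is darkest red in enterocyte-like clusters 16, 13 and 20 (87.5, 150.4 and 312.3 ppm), and Cldn2 is blue in the same clusters.

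Across the 32 clusters, which share libraries and depth, Pearson correlations of log2(ppm + 1) are given as descriptions. Cldn4 went with Cldn7 (0.68) and against Cldn2 (-0.67), and Cldn3 with Cldn23 (0.59). Cldn15 was not strongly correlated with any other claudin, with its values running from -0.40 with Cldn4 to 0.36 with Cldn3. Among 9033 genes outside the junction, scoring and marker lists, the profile of Cldn4 was most like those of Ly6m (0.97), Clca4a (0.93) and Gprc5a (0.92). Cldn2 was most like Ola1 (0.97), Cct3 (0.97) and Ammecr1 (0.96), Cldn7 like Ipmk (0.89), Casp8 (0.86) and Map3k6 (0.86), and Cldn23 like Sat1 (0.88), Trp53inp2 (0.87) and Cap1 (0.86). Cldn15 was most like Rragd (0.85), Rabl3 (0.83) and Psmb8 (0.80). Cldn3 had the loosest matches, Ubxn4 (0.72), 1810065E05Rik (0.70) and Car4 (0.70).

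Of the 8 other claudin symbols in the table, Cldn12 alone passed the level filter in any of these comparisons, at 20.4 ppm in progenitor-like and 11.6 ppm in enterocyte-like cells, and it was not called. Cldn8 was at 5.96 and 0.828 ppm in these classes. Cldn18, a claudin of stomach epithelium, was at 993.6 ppm in the 171 stomach-like cells and at 0.346 ppm in progenitor-like and 0.132 ppm in enterocyte-like cells. The remaining 5, Cldn10, Cldn11, Cldn14, Cldn20 and Cldn34c1, did not exceed 5.17 ppm in any of the 32 clusters.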

How the data were processed

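Per the labels' protocols, intestines were cut along their length, cells of each segment were tagged with a MULTI-seq barcode, and libraries used 10x Chromium 3′ chemistry. Reads were processed with Cell Ranger against mm10, per the submitters' processing notes; how libraries were filtered or merged before deposit was not given in these sources. Values in the authors' deposited table are whole numbers, yet 2 occurred more often than 1 in 25.3% of cells, and cell totals spanned 2764 to 9739 (median 5503), so they were treated as a score and not as counts. The depth behind a value is therefore unknown and no counting interval is given. Segment barcodes and diets were not used here.

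A minimum of 500 detected genes and a maximum of 25% mitochondrial values removed 2 cells. Scrublet in scanpy 1.11.5 (expected rate 0.06) marked 45 cells (0.161%), below the 0.5% taken as the least for a working caller, so doublets may remain. The 27834 remaining cells were scaled, log-transformed and clustered without 51 junction genes (2000 variable genes, 30 components, 15 neighbours, leidenalg 0.10.2, resolution 2). A cluster was named where at least 3 markers were at least 2-fold higher at 10 ppm or more, the list's median margin over rival lists was at least 0.5 on the log2 scale and it held at least 50 cells. Secretory and other names also needed a marker among the 30 leading genes, brush border and villus tip genes also gave the name enterocyte-like, and the red blood cell list gave no name. This rule was set after the clusters had been seen. Of 15 marker lists, the Paneth and M cell lists named no cluster. The lists for immune, endothelial and stromal cells named none either.

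Values were summed per barcode set and group and scaled to ppm. Log2 differences used a pseudocount of 1 ppm, which understates differences of low genes. Claudins and partner lists were chosen with earlier results of these data known. The named genes are the 6 claudins, up to 8 genes of the 3 partner lists with the largest called differences in a comparison (lists of called genes are given without values), and the 3 genes most correlated with each claudin. Genes named to mark clusters are their leading genes. The comparisons with Paneth-like cells gave no value, and the tuft-like ones rest on 1 set. Alternatives were another pseudocount (10 ppm), pooled sums, no rescaling, cells with at least 1500 detected genes, no filter on low values, leaving out each set, resolution 1, other scoring genes and regional parts matched on detected genes. Added after seeing the data were matching on detected genes in the first 3 comparisons, regional parts matched on the villus score, and deciles without unnamed clusters 0, 1 and 7. The comparison function was tested on simulated data. Other tools were igraph 0.11.9 for the neighbour graph, numpy 2.4.6 and pandas 2.3.3 for sums, matplotlib 3.10.9 for figures, scipy 1.17.1, scikit-learn 1.9.0 and Python 3.11.15.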

Additional observations from a re-analysis of the deposited data

Results flagged for a closer look

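In 42 groups of 4 to 10 barcode sets, 2 had 1 set far from the others by Dixon's 95% critical value, and chance flags about 1 in 20 such groups. The Cldn15 difference between villus tip and bottom was -0.20 in set 7, while the other 7 sets lay between -1.06 and -0.66; set 7 had Cldn15 at 159.4 ppm at the bottom, the lowest of the sets. The Cldn23 difference between distal and proximal progenitor-like cells was 1.95 in set 1, where the levels were 9.05 and 1.59 ppm, both under the 10 ppm minimum.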

How the results depend on the processing

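Leaving out 1 set at a time gave 3 to 4 called claudins between enterocyte-like and progenitor-like cells and 1 to 2 between villus tip and bottom. The villus count of 1 was 2 without rescaling, 2 with tip genes alone and 3 when cut without regard to region. The regional count of 2 was 1 without rescaling, 1 with cells matched on the villus score (chosen after seeing the data), 0 when cells were matched on detected genes, and 0 when the score used the distal genes alone. That score also turned Cldn4 to -0.36; the cause was not tested. The enteroendocrine-like counts of 0 were 2 against enterocyte-like cells with a pooled sum and without rescaling, and 1 against progenitor-like cells without rescaling and without the filter on low values. Cldn2, Cldn4 and Cldn23 between enterocyte-like and progenitor-like cells, Cldn2 and Cldn23 between the maturation ends and Cldn4 between villus tip and bottom kept direction and call under every alternative run for them. Each difference was taken between cells of the same barcode set, so the comparisons are paired by set. No paired analysis was possible by replicate number because the sets cannot be matched to numbered samples. Depth is unknown, so levels under the 10 ppm minimum, such as Cldn4 in progenitor-like cells, are given as values whose counting error cannot be stated.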
